A study of Gallus gallus with 3 samples.

Results

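Genes that a type I and a type II vestibular hair cell both expressed were set against the whole sensory organ, to ask which transcripts stood out in the hair cells and which were thinned there. A gene entered the comparison when it had at least 100 estimated reads in both hair cell libraries, and 1327 of the 30108 genes in the deposited tables did. No level in the organ was used to choose them. For each gene the TPM (transcript abundance, scaled by gene length and library size) of each hair cell was divided by the TPM of the whole organ. Genes were ranked by the smaller of the 2 ratios for the high end and by the larger for the low end.

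The study recorded from hair cells of the semicircular canals of chicken embryos and collected their contents for sequencing (Patch-seq). The type I hair cell came from an embryo at embryonic day (E) 20 and the type II hair cell from an embryo at E19, each as cytoplasm and nucleus drawn into the patch pipette, amplified by template switching and read as single reads of 100 bp. The whole crista, the sensory ridge of a canal with all its cell types, came from 22 embryos at E16, pooled as 500 pg of RNA into 1 library with paired-end reads. Its cDNA was amplified as well, with a different kit. No genotype, drug or transgene separated the groups. There was 1 library in each of the 3 groups, so no ratio below has a replicate, no standard error could be given and no test between groups was made. Cell type, age, library method and depth changed together between the hair cells and the organ and cannot be told apart. In a bulk library of an organ, fewer cells of a type and less RNA per cell cannot be told apart either. Bracketed ranges are exact 95% intervals of a ratio of counts. They cover counting error only, since the reads were amplified with no molecular identifiers and a molecule can be read many times.

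Hair cells turn deflection of the hair bundle, an array of actin-filled stereocilia beside a true cilium called the kinocilium, into a receptor potential. Type I hair cells are enclosed by a calyx terminal of the afferent neuron and carry a large low-voltage-activated K+ conductance, whereas type II hair cells contact bouton terminals. In the crista both lie among supporting cells, above connective tissue with nerve fibres, glia, vessels and blood, and near the dark cells that secrete K+ into endolymph.

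The libraries held 10779664 estimated reads in the type I cell, 11943061 in the type II cell and 67428006 in the whole crista. Genes with at least 1 read numbered 2340, 2381 and 18001. The 1327 genes carried 99.8% of the reads in each hair cell, against 34.6% of those in the whole crista, and 99.8%, 99.9% and 41.8% of the TPM. Over the 1327 genes the hair cell libraries resembled each other closely. Spearman's rho between their TPM was 0.992, and 1309 genes (98.6%) lay within 2-fold. The read minimum in both cells left out 1419 genes with a read in a hair cell. Genes read in only 1 of the cells were thus removed before this agreement was measured. The median of the log2 ratio of type I over type II was 0.04 with an SD over genes of 0.38. Because the hair cells were this alike over these genes, the ratios of both to the organ count as a description of 2 similar libraries and not as independent repeats. The rank correlation with the whole crista was 0.398 for the type I cell and 0.379 for the type II cell, and 0.201 and 0.190 on estimated reads without the length scaling. Points in these correlations are genes, which share library, depth and base composition.

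A list of known hair cell markers, *KCNA10*, *CFAP126*, *CLUAP1*, *SCN3B* and *OCM1* among them, was chosen with earlier results of these data known. It is therefore no independent check of the hair cell label. The list had 30 gene entries. Of these, 13 had a read in at least 1 hair cell and 10 were among the 1327 genes. Their summed level was 33236 TPM in the type I cell and 27080 TPM in the type II cell, against 4595 TPM in the whole crista, most of it from *OCM1*. Defining markers were missing from the cells all the same. *MYO7A*, *POU4F3*, *CDH23*, *PCDH15*, *ESPN*, *LHFPL5*, *SLC17A8* and *CALB2* had no read in either hair cell and were read in the whole crista. All 8 erythroid entries had no read in either hair cell, and they summed to 30965 TPM in the whole crista. The 14 immune entries had none in the hair cells and summed to 782 TPM in the organ. Glial, endothelial and melanocyte markers reached at most 2.82, 0.769 and 0.429 summed TPM in a hair cell, and none of their genes entered the comparison. Of 26 supporting cell entries, 9 were among the 1327 genes, with a summed level over the whole list of 5577, 6195 and 25063 TPM in the type I cell, the type II cell and the whole crista. Of 18 mesenchyme entries 5 were, with 2327, 2493 and 8124 TPM. The supporting cell sums include *USH1C*, which is also on a list of hair bundle genes, and *JAG2*, which nascent hair cells carry. The part that transcripts listed for other cell types have in the ratios was not tested.

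Most of the 1327 genes took a larger share of a hair cell library than of the organ library. The median ratio to the whole crista was 1.95 for the type I cell and 1.89 for the type II cell, with 5th to 95th percentiles of 0.0746 to 57.1 and 0.0609 to 59.1. Both ratios were above 1 for 800 genes, both were below 1 for 483, and 44 genes lay on either side. A gene was called high when both ratios were at least 10 and low when both were at most 0.1. By that rule 241 genes (18.2%) were high and 89 (6.71%) were low, and 260 lay within 2-fold of the organ in both cells. TPM sums to the same total in each library, and the 1327 genes took nearly all of it in the hair cells but 41.8% in the organ. With each library divided by its median ratio the same rule gave 142 high (10.7%) and 169 low (12.7%) genes, and on CPM (reads scaled to the library total) 317 (23.9%) and 54 (4.07%). With TPM rescaled over the 1327 genes alone it gave 118 (8.89%) and 202 (15.2%). Division by the median ratio and rescaling over the 1327 genes keep the order of genes within a cell, whereas CPM, which drops the length scaling, does not. The number that pass on each side changed under each of them.

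**Figure D1:**
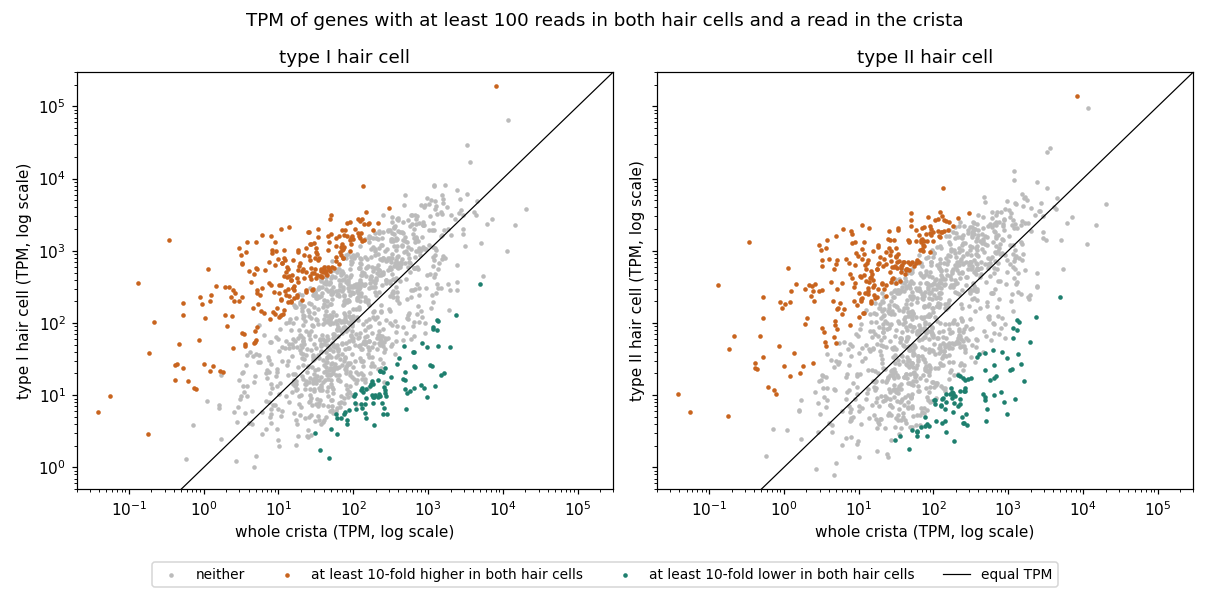
Each point is a gene with at least 100 estimated reads in both hair cells and a read in the whole crista, at its TPM in the whole crista (x axis, log scale) and in the type I (left) or type II (right) hair cell (y axis, log scale). The 241 genes at least 10-fold higher in both cells, of which 4 without a read in the organ are not drawn, lie far above the line of equal TPM, and the 89 at least 10-fold lower lie below it, mostly near the floor set by the read minimum.

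The high and the low genes differed in how much of each library they filled. The 241 high genes made up 37.7% of type I, 36.3% of type II and 1.03% of whole crista reads, with median levels of 519, 597 and 14.6 TPM. The 89 low genes held 0.391%, 0.329% and 4.99%, with medians of 11.96, 9.38 and 248 TPM. Their median number of reads was 254 in the type I cell and 205 in the type II cell, and 77 of the 89 had fewer than 500 reads in a hair cell. A gene much lower in the hair cells than these could not pass the read minimum, so the low end holds the organ's abundant genes that were still read, not those most reduced. At the thresholds, *NTNG1* was just inside the high rule with a smaller ratio of 10.1 and *COMMD8* just outside with 9.98. *PSMA4* was just inside the low rule with a larger ratio of 0.0994 and *TRAPPC4* just outside with 0.1004. *HSPE1* passed the read minimum with 100.03 reads in its lower cell, and *KERA* missed it with 99.02.

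Among genes with a symbol and at least 10 reads in the organ, *MYOM1*, which encodes the M-band protein myomesin of striated muscle, stood highest. It had 553 TPM in the type I cell and 586 TPM in the type II cell, against 1.13 TPM in the whole crista. The ratios were 489.6 (434 to 554) and 519 (460.2 to 587). *DAZAP1*, an RNA-binding protein gene, followed with 1081, 1203 and 2.97 TPM in the type I cell, the type II cell and the whole crista. Both cells gave nearly the same level of each gene.

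The first 20 genes of this ranking had varied roles. *RDH5*, a retinol dehydrogenase, had 188 TPM in the type I cell and 232 TPM in the type II cell, against 0.522 TPM in the whole crista from 21.0 reads, so its ratios of 361 (235 to 585) and 444 (289 to 720.0) had wide counting intervals. *RMI2*, a subunit of a complex that resolves DNA recombination intermediates, had 1328, 1426 and 3.77 TPM. *AK7*, an adenylate kinase of motile cilia, had 878 TPM in the type I cell and 1024 TPM in the type II cell, against 3.14 TPM in the whole crista. *TCTEX1D1*, a dynein light chain family gene, had 2108, 2072 and 13.9 TPM in the same order. The signalling and membrane genes *SMPD2* (a neutral sphingomyelinase), *BORCS7* (a subunit of the complex that positions lysosomes) and *TMX1* (a transmembrane thioredoxin) had smaller ratios of 273, 201 and 223. The transcription genes *HEXIM1*, an inhibitor of the elongation factor P-TEFb, and *TAF11*, a TFIID subunit, had smaller ratios of 185 and 183. *H2BC32*, a histone H2B gene, was in the list with smaller ratio 303 under 1 of the identifiers that carry its symbol, and near-identical histone copies make its reads uncertain.

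**Figure D2:**
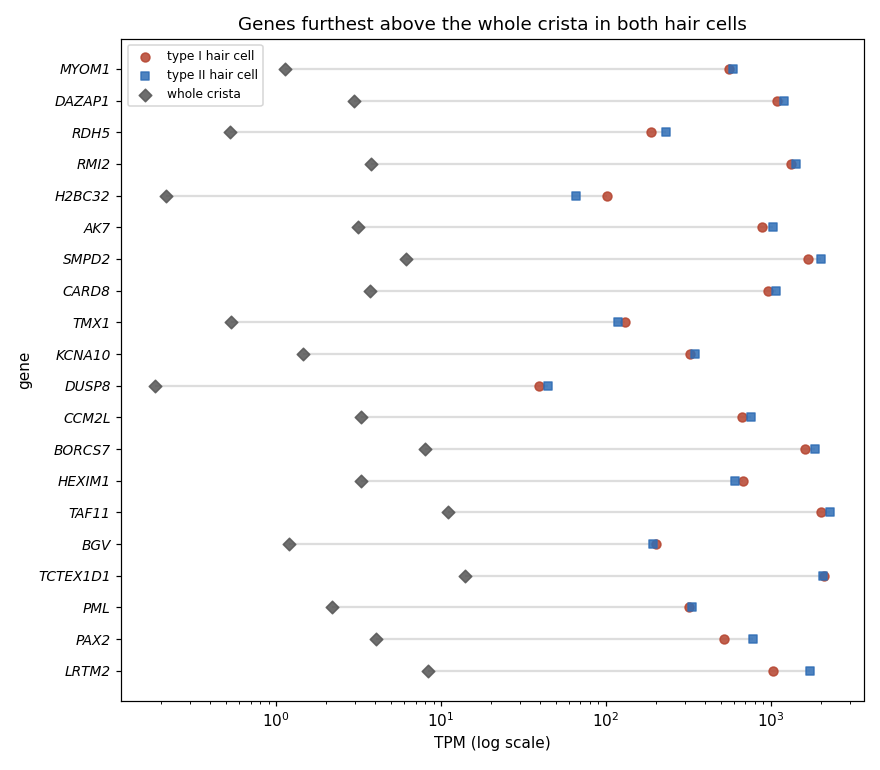
TPM (x axis, log scale) of the 20 named nuclear genes with the highest smaller ratio, in the type I cell (circles), the type II cell (squares) and the whole crista (diamonds). In every row the hair cell symbols lie close together and more than 100-fold above the organ.

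The K+ channel gene *KCNA10* was the highest ranked of the channels and the only ion channel gene among these 20. Its product KV1.8 is a shaker-type subunit that in mice is needed for the low-voltage-activated conductance of vestibular type I hair cells. *KCNA10* (chromosome 26, 1474448 to 1482515, GRCg7b) had 323 TPM in the type I cell and 348 TPM in the type II cell, against 1.45 TPM in the whole crista. The ratios were 222 (189.6 to 262) and 239 (204 to 282). The 156 organ reads behind the divisor set the width of these intervals. By RT-PCR the paper reports a rise of *KCNA10* in the canal cristae from E16 to E20. The whole crista here was E16 and the hair cells E20 and E19, and the part of age in these ratios was not tested.

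Among genes for voltage-gated channels and their auxiliary subunits 6 of 14 were high and 1 low, beside 18.2% and 6.71% of all genes. Division of each library by its median ratio gave 4 high and 1 low, beside 10.7% and 12.7%. The 14 came from 164 entries in the files, and had median log2 ratios of 2.68 in the type I cell and 3.13 in the type II cell, against 0.96 and 0.92 over all genes. *KCNAB1*, a beta subunit of shaker channels, had 590.3 TPM in the type I cell and 676 TPM in the type II cell, against 13.0 TPM in the whole crista. *SCN3B*, a beta subunit of Na+ channels, had 509.6, 555 and 12.5 TPM in the same order. *KCND2*, the A-type channel KV4.2, had ratios of 35.4 (32.8 to 38.1) in the type I cell and 43.6 (40.5 to 46.9) in the type II cell.

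Less familiar channel genes were high as well. *TPCN3*, a voltage-gated cation channel of the TPC family, had 452 TPM in the type I cell and 507 TPM in the type II cell, against 26.1 TPM in the whole crista. *KCNJ12*, an inward rectifier, was called on few reads, 119 in the type I cell and 204 in the type II cell and 61.0 in the whole crista. Both *TPCN3* and *KCNJ12* lost the call with each library divided by its median ratio. *CACNA1D*, the CaV1.3 channel of hair cell synapses, was past 10-fold in the type II cell alone, with 8.05 (7.75 to 8.36) in the type I cell and 11.9 (11.5 to 12.4) in the type II cell, whereas on CPM it was high in both, at 12.3 and 18.1. *KCNE1*, the subunit of the K+ channel by which dark cells secrete, was low in both, with 12.8 and 11.4 TPM in the type I and type II cells and 259.6 TPM in the whole crista.

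Genes of cilia and centrioles had the highest median ratio of the lists with at least 5 genes. Of 14 genes among the 1327, 9 were high and 0 low, beside 18.2% and 6.71% of all genes. Division of each library by its median ratio gave 6 high and 0 low, beside 10.7% and 12.7%. The median log2 ratio on TPM was 3.89 in either cell. The list had 214 entries in the files, of which 186 reached 100 reads in the organ and 7.53% of these reached the read minimum in both hair cells, against 9.91% of all genes. No read was found for 195 entries in the type I cell and 193 in the type II cell. Over the whole list the summed level was much closer to the organ than the median ratio. It was 6783 TPM in the type I cell and 6912 TPM in the type II cell, against 5673 TPM in the whole crista. *CEP250*, a linker of the centriole pair, had 285 TPM in the type I cell and 281 TPM in the type II cell, against 2.46 TPM in the whole crista. *CEP112*, another centrosomal protein gene, had ratios of 93.6 (87.9 to 99.8) and 91.2 (85.6 to 97.3).

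Proteins of the axoneme and of ciliary transport made up much of the remainder. *CFAP126*, which helps to dock and position the basal bodies of ciliated cells, had 1833 TPM in the type I cell and 1469 TPM in the type II cell, against 24.8 TPM in the whole crista, ratios of 73.9 (66.1 to 82.9) and 59.3 (53.0 to 66.4). *CLUAP1*, a subunit of the intraflagellar transport complex B, had ratios of 30.1 (28.8 to 31.5) and 26.9 (25.7 to 28.1). *DNAH9*, a heavy chain of the outer dynein arm of motile cilia, had 16.5, 24.0 and 0.417 TPM in the type I cell, the type II cell and the whole crista. *BBS4*, a subunit of the BBSome that carries membrane cargo in cilia, had ratios of 23.8 and 31.6. The centriolar genes *CEP164* and *CEP170B* and the dynein assembly factor gene *DNAAF1* had smaller ratios of 16.2, 13.0 and 11.3, and all of these lost the call with each library divided by its median ratio.

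The microtubule genes that passed the read minimum were split by kind. Of 4 kinesin genes 3 were high, beside 18.2% of all genes, and 1, beside 8.89%, with TPM rescaled over the 1327 genes alone. Their list, with cytoplasmic dynein, had 52 entries. Of these 45 had no read in the type I cell and 45 in the type II cell. Its summed level was 1497 TPM in the type I cell and 1764 TPM in the type II cell, against 2165 TPM in the whole crista. *KIF9*, a kinesin of motile cilia, had 758 TPM in the type I cell and 858 TPM in the type II cell, against 9.87 TPM in the whole crista. *KIF28P* and *KIF16B*, an endosomal motor, had smaller ratios of 21.6 and 21.0. The tubulins that passed the read minimum were both low, beside 6.71% of all genes. On CPM both stayed below the organ and 1 was called, beside 4.07%. *TUBB4B* had 26.5 and 22.2 TPM in the type I and type II cells, against 1069.7 TPM in the whole crista, and *TUBA1B* had 21.0, 17.1 and 248 TPM in that order. Of the 22 tubulin entries 19 had no read in either cell.

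Genes of the hair bundle and of mechanotransduction lay on both sides of the organ. Of 46 entries 13 were among the 1327 genes, 1 high and 0 low, beside 18.2% and 6.71% of all genes. Their median log2 ratios of 0.21 in the type I cell and 0.26 in the type II cell turned to -0.75 and -0.66 with each library divided by its median ratio. *MYO1H*, an unconventional myosin, was the high gene, with 265 TPM in the type I cell and 314 TPM in the type II cell, against 8.76 TPM in the whole crista. *USH1C*, the scaffold protein harmonin, had ratios of 8.80 and 8.48, and stood in the supporting cell list as well. *MYO6*, the minus-end-directed myosin of hair cells, was below the organ at 0.234 and 0.287. The actins differed, with *ACTG1* at 2.82 in the type I cell and 3.60 in the type II cell and *ACTB* at 0.0846 and 0.104.

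*OCM1*, which encodes the EF-hand Ca2+ buffer oncomodulin, illustrated the difference between a level and a ratio. It had 29368 TPM in the type I cell and 23579.9 TPM in the type II cell, against 3289 TPM in the whole crista. Its ratios were 8.93 (8.83 to 9.03) and 7.17 (7.09 to 7.25), below the 10-fold rule. *TESC*, which encodes the EF-hand protein tescalcin, had a lower level and larger ratios, with 7769, 7377 and 135 TPM in the type I cell, the type II cell and the whole crista and ratios of 57.5 and 54.6. *TESC* was not on the calcium-binding list and was named after its value was seen. Among the 9 genes of that list, 0 were high and 1 was low, beside 18.2% and 6.71% of all genes. On CPM 0 were low, beside 4.07%. *CALM2*, a calmodulin gene, had ratios of 0.253 and 0.281 in the type I and type II cells. *S100A6* was the low gene, with 344 and 232 TPM in the hair cells and 4880.1 TPM in the whole crista.

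At the synapse, 6 of 138 list entries passed the read minimum, 1 high and 2 low, beside 18.2% and 6.71% of all genes. *SYNGR1*, a membrane protein of synaptic vesicles, was the 1 high gene, a call it lost with each library divided by its median ratio, with 135 TPM in the type I cell and 360.5 TPM in the type II cell, against 9.07 TPM in the whole crista. *CLTC*, the clathrin heavy chain, and *CTBPL*, a gene related by name to the C-terminal binding proteins, were low, with larger ratios of 0.0617 and 0.0811, and *CTBPL* lost the call on CPM. *OTOF*, the synaptic Ca2+ sensor otoferlin, had 2 reads in the type I cell and 0 in the type II cell and 14018 in the whole crista.

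Transcription factors gave 2 high genes of 10 that passed the read minimum, near the 18.2% of all genes, and their median log2 ratios of 0.78 in the type I cell and 0.59 in the type II cell turned to -0.18 and -0.33 with each library divided by its median ratio. *PAX2*, a paired-box factor of the developing inner ear, had 518 TPM in the type I cell and 773 TPM in the type II cell, against 4.04 TPM in the whole crista, ratios of 128 (115 to 143) and 191 (172 to 214). Its effective length was 4349 bases in the type I cell and 4171 bases in the type II cell but 2030 bases in the whole crista. The length scaling therefore made these ratios smaller than those on CPM. *SOX4* had 1229, 1004 and 27.0 TPM in the type I cell, the type II cell and the whole crista. Other SOX genes, known from supporting cells and glia, had lower ratios. *SOX9* had ratios of 2.69 and 2.27, *SOX10* of 1.34 and 1.64 and *SOX8* of 0.159 and 0.105. *JAG2*, a Notch ligand that nascent hair cells carry, had 514 TPM in the type I cell and 709 TPM in the type II cell, against 39.3 TPM in the whole crista. It was the single high gene of the 9 supporting cell list genes that passed the read minimum, beside 18.2% of all genes. That list had 0 high genes with each library divided by its median ratio, beside 10.7%.

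The 11 genes for mitochondrial ribosomal proteins all lay above the organ on TPM and on CPM, and 10 of them with each library divided by its median ratio, where *MRPS21* fell below. On TPM 5 were high, beside 18.2% of all genes, or 4, beside 10.7%, with each library divided by its median ratio. The median log2 ratios on TPM were 3.31 in the type I cell and 3.58 in the type II cell. *MRPL19* had 1719 TPM in the type I cell and 2213 TPM in the type II cell, against 49.6 TPM in the whole crista. *MRPL22* had ratios of 28.7 and 35.5, *MRPL38* of 27.3 and 29.1, and *MRPS21* the least, 1.39 and 1.12. Of the 73 entries, 55 were without a read in the type I cell and 54 in the type II cell.

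Cytosolic ribosomal proteins were the list read most completely in the hair cells among those with over 20 entries, with a read in 67 of 81. Of the 80 entries that the whole crista held at 100 reads or more, 60 passed the minimum in both hair cells, beside 9.91% of all genes. The list is abundant, with 47063 TPM summed in the whole crista. Of the 500 nuclear genes with the highest TPM there, 52.0% passed. The median log2 ratio of the 60 was 0.90 in the type I cell and 0.61 in the type II cell. On TPM 1 of 60 was high and 4 low, beside 18.2% and 6.71% of all genes. With each library divided by its median ratio the medians were -0.06 and -0.31, with 0 high and 7 low, beside 10.7% and 12.7%. *RPS28* had 3416 TPM in the type I cell and 2602 TPM in the type II cell, against 147 TPM in the whole crista. *RPSA2*, *RPS16*, *RPL8* and *RPS21* were low, with larger ratios of 0.0222, 0.0330, 0.0546 and 0.0948, and *RPS21* lost the call on CPM. Ribosomal protein genes have near-identical copies in the genome, and how the counting split shared reads was not examined. Translation factors showed a similar spread, *EEF1A1* at 1.45 and 1.46 and *EEF2* at 0.0203 and 0.0284 in the type I and type II cells.

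**Figure D3:**
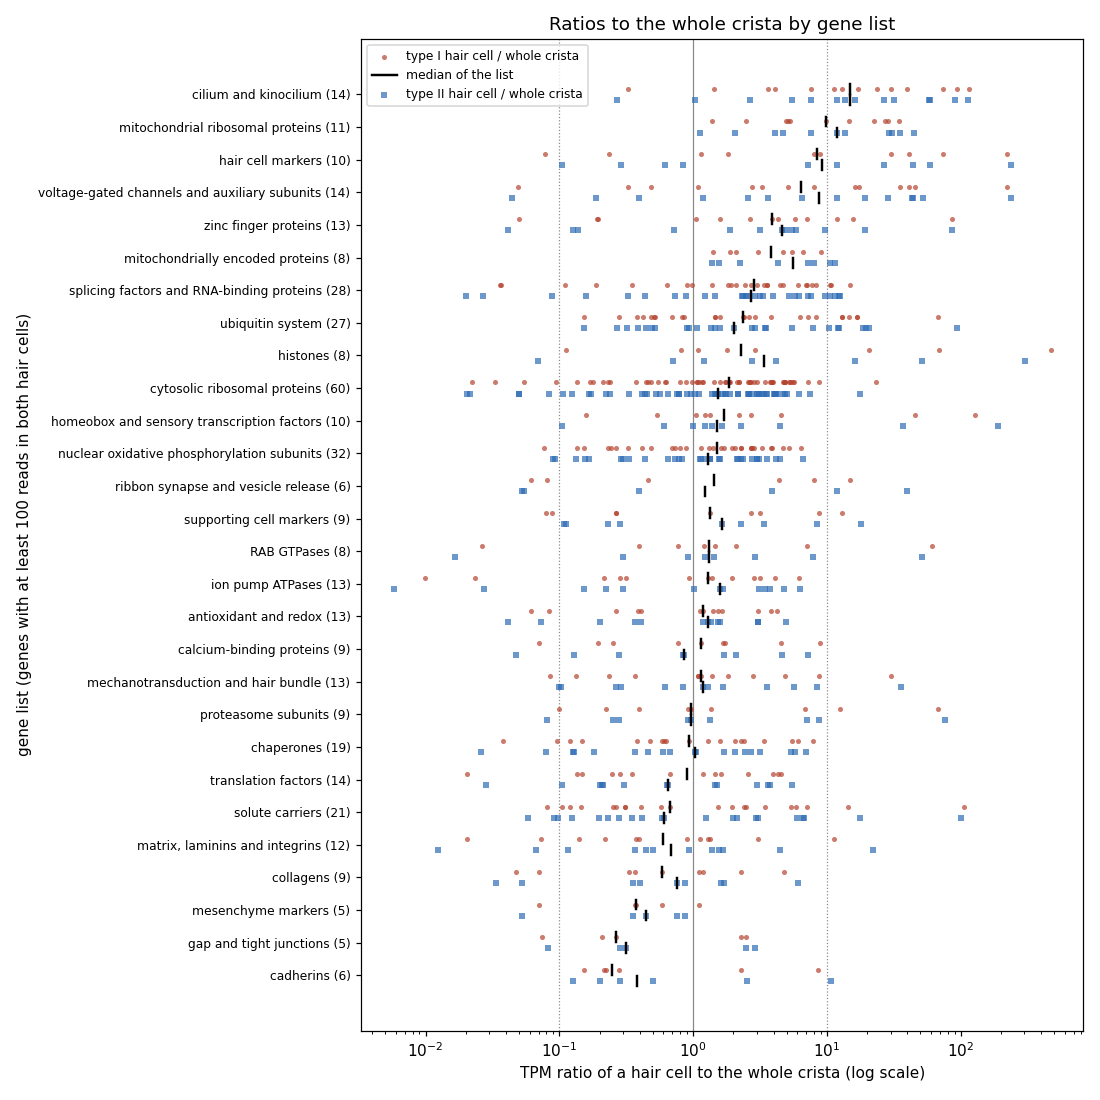
TPM ratio of the type I (circles) and type II (squares) hair cell to the whole crista (x axis, log scale) for the genes of each list with at least 5 genes among the 1327, with the number of genes in brackets and black bars at the median of the log ratios. Cilium genes have the highest medians, 14.8-fold in either cell, and the dotted lines mark the 10-fold rules.

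Energy genes lay on both sides of the organ. None of 32 nuclear genes for oxidative phosphorylation was high and 1 was low, beside 18.2% and 6.71% of all genes. Their median log2 ratios of 0.59 in the type I cell and 0.37 in the type II cell turned to -0.37 and -0.55 with each library divided by its median ratio. *NDUFB3*, a complex I subunit, had ratios of 6.44 and 6.65, and *UQCRQ*, a complex III subunit, of 0.0772 and 0.0903. *UQCRQ* was the low gene and lost the call on CPM, where its ratios were 0.116 and 0.128. All 4 glycolysis genes were below the organ in both cells on TPM, and 3 of them on CPM, where *LDHB* was above it. *GAPDH* had 3843 TPM in the type I cell and 4457 TPM in the type II cell, against 20239 TPM in the whole crista, and *LDHB* had ratios of 0.818 and 0.942.

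The mitochondrial genome was read unevenly, and alike in both hair cells. Its 13 protein genes made up 5.50% of type I, 7.38% of type II and 0.879% of whole crista reads. *COX3* had 63646 TPM in the type I cell and 94017 TPM in the type II cell, against 11665 TPM in the whole crista, and *CYTB* had 17144, 26149 and 3637 TPM in that order. *ND1* had the highest ratios, 9.08 and 11.6. Of the 13 genes 8 passed the read minimum, all with ratios above 1 and 0 called on TPM, whereas 5 were above 1 in both cells with each library divided by its median ratio and *ND1* was high on CPM. Their neighbours on the same genome were nearly absent. *ND4* had 0 reads in the type I cell and 5 in the type II cell, against 22861 in the whole crista. *ATP6* had 82.0, 56.0 and 43206 reads in the type I cell, the type II cell and the whole crista, and *ATP8* and *ND4L* had none in the hair cells. These genes share polycistronic transcripts, and the cause of the pattern was not tested.

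**Figure D4:**
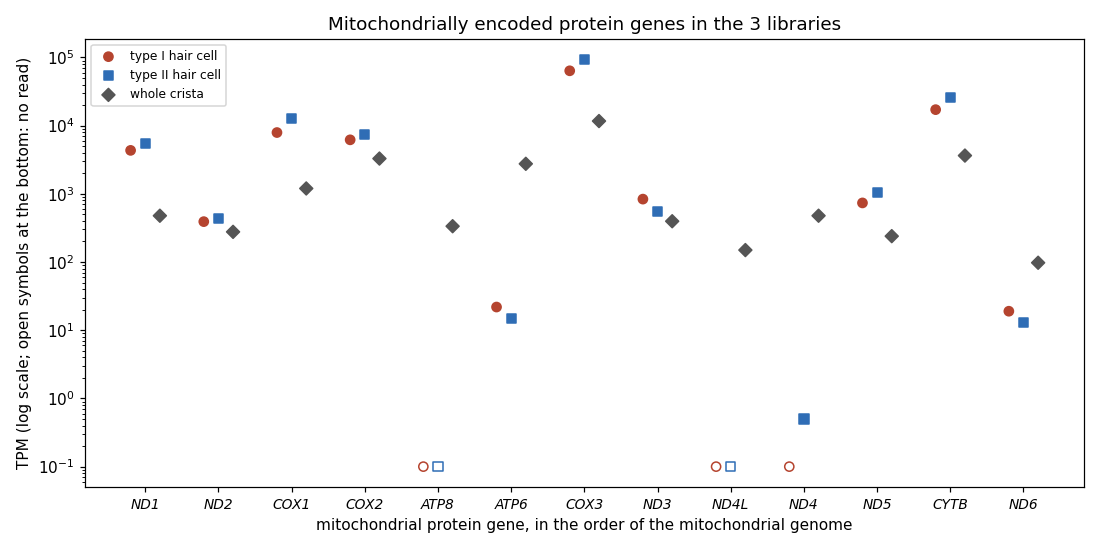
TPM (y axis, log scale) of the 13 mitochondrially encoded protein genes in the type I cell (circles), the type II cell (squares) and the whole crista (diamonds), with open symbols at the bottom for genes without a read. The hair cells exceed the organ for 8 genes, from *ND1* to *CYTB* (5 of them with each library divided by its median ratio), and lie below it for *ATP8*, *ATP6*, *ND4L*, *ND4* and *ND6*.

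At the low end, *ATP1B4* was the gene furthest below the organ and the single gene under 0.01 in both cells. It encodes a protein of the Na+/K+-ATPase beta subunit family. *ATP1B4* had 9.51 TPM in the type I cell and 5.56 TPM in the type II cell, against 957 TPM in the whole crista, ratios of 0.00994 (0.00851 to 0.0115) and 0.00581 (0.00474 to 0.00706). *ATP1B1*, another gene of the beta subunit family, had ratios of 3.18 and 3.45. Of 13 ion pump genes 0 were high and 2 were low, beside 18.2% and 6.71% of all genes. With TPM rescaled over the 1327 genes alone 3 were low, beside 15.2%.

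*P4HB*, *PDIA4* and *PDIA6*, protein disulphide isomerase genes of the endoplasmic reticulum, were among the 20 lowest, while *TMX1*, of the same thioredoxin superfamily, was high. None of them was on a list. In the chaperone list 0 of 19 genes were high and 2 low, beside 18.2% and 6.71% of all genes. Of the 19, 9 lay above the organ and 9 below, beside 800 and 483 of all 1327 genes. With each library divided by its median ratio 4 were low, beside 12.7%. *P4HB* had 13.4 TPM in the type I cell and 8.88 TPM in the type II cell, against 1220.1 TPM in the whole crista. *PDIA4* had 12.5, 8.19 and 887 TPM in the same order, and *PDIA6* had 12.2, 9.38 and 493 TPM. *TMED7*, a cargo receptor of the early secretory pathway, had ratios of 0.0211 and 0.0124. Its effective length was 3737 bases in the type I cell and 4049 bases in the type II cell and 1022 bases in the whole crista, and it was the gene of these 20 that lost the call without length scaling, 19 keeping it.

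Of 12 genes of the matrix, laminin and integrin list 1 was high and 2 were low, beside 18.2% and 6.71% of all genes. Of the 12, 5 lay above the organ and 7 below. With each library divided by its median ratio 0 were high and 3 low, beside 10.7% and 12.7%. *TNMD*, *CXCL14*, *NELL2* and *SDC2*, also among the 20 lowest, were outside that list. *TNMD*, the tendon and cartilage protein tenomodulin, had 20.02 TPM in the type I cell and 15.9 TPM in the type II cell, against 1635 TPM in the whole crista. *LAMB1*, a basement membrane laminin chain, had 3.88, 2.33 and 189.7 TPM in that order. *CXCL14*, a chemokine, had ratios of 0.0130 and 0.0185, and *NELL2*, a secreted glycoprotein, of 0.0128 and 0.00861. *SDC2*, a heparan sulphate proteoglycan, had larger ratio 0.0195. Of 9 collagens 2 were low, beside 6.71% of all genes. *COL9A3* had 45.9 TPM in the type I cell and 32.7 TPM in the type II cell, against 977 TPM in the whole crista, and *COL1A2* had ratios of 0.0706 and 0.0530. *COL1A1* had 397, 307 and 356 TPM in the type I cell, the type II cell and the whole crista. *LAMA5*, another laminin chain, was high with ratios of 11.3 and 21.99, but not with each library divided by its median ratio.

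Housekeeping genes were also among the 20 lowest. *MDH1*, cytosolic malate dehydrogenase, had 13.8 TPM in the type I cell and 11.2 TPM in the type II cell, against 797 TPM in the whole crista. *DSTN*, the actin-severing protein destrin, had ratios of 0.0192 and 0.0152. *RAB14*, a GTPase of endosomes, had larger ratio 0.0262, while *RAB7A*, of late endosomes, lay above the organ at 7.06 and 7.89. *HDLBP*, *CBX3* and *CTSC*, an RNA-binding protein, a heterochromatin protein and a lysosomal protease, had larger ratios of 0.0222, 0.0319 and 0.0326.

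**Figure D5:**
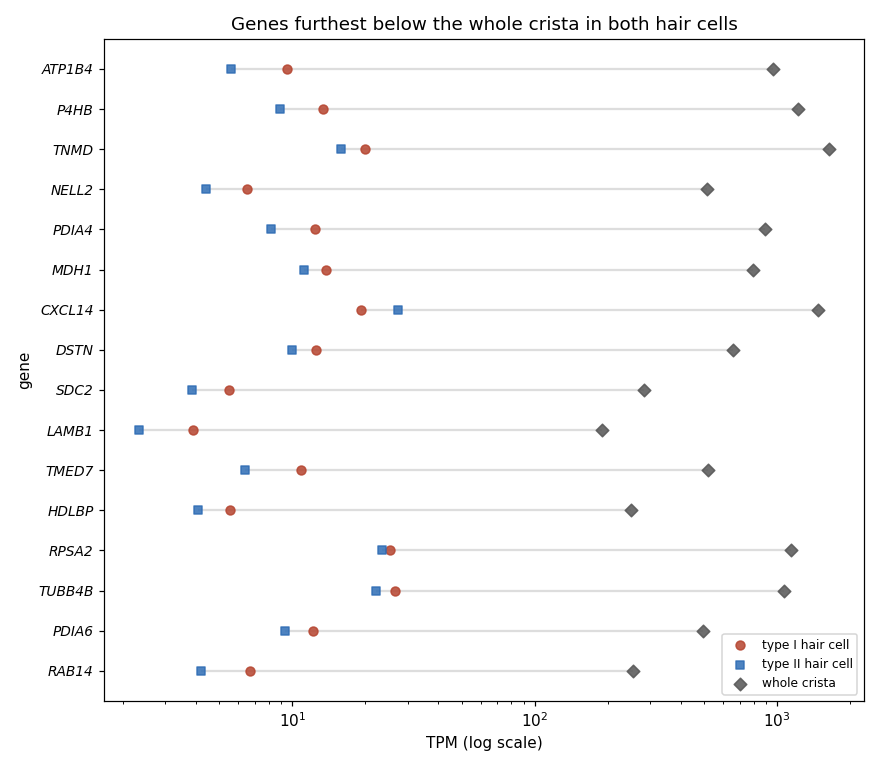
TPM (x axis, log scale) of the 16 named genes with the lowest larger ratio, in the type I cell (circles), the type II cell (squares) and the whole crista (diamonds). The hair cells lie between 2.33 TPM for *LAMB1* and 27.3 TPM for *CXCL14*, the 1 gene of these whose type II symbol is right of its type I symbol.

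Of the 26 supporting cell entries 13 had a read in a hair cell, and of the 9 that passed the read minimum 5 lay above the organ in both cells and 4 below, or 4 and 5 with each library divided by its median ratio. *COCH*, the secreted protein cochlin and the gene with most reads in the whole crista, had 1007 TPM in the type I cell and 1238 TPM in the type II cell, against 11434 TPM in the whole crista, ratios of 0.0881 and 0.108. Above it, beside *JAG2*, *USH1C*, *SOX9* and *SOX10*, was *BRICD5*, with 2388 TPM in the type I cell and 2541 TPM in the type II cell, against 749.6 TPM in the whole crista. *AGR3* had ratios of 0.0788 and 0.113 and *GJB6*, a connexin, of 0.265 and 0.284. *GJA1*, a connexin outside that list, was low, with 0.0741 and 0.0819, but not on CPM, with 0.158 and 0.172. *OC90*, an otoconial matrix protein gene, had 5350.3 TPM in the whole crista and no read in either hair cell.

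Genes for the transport and disposal of solutes and proteins showed smaller groups. Of 21 solute carriers 2 were high and 1 low, beside 18.2% and 6.71% of all genes. With each library divided by its median ratio 1 was high and 4 low, beside 10.7% and 12.7%. *SLC35C1*, the GDP-fucose transporter, had 995 TPM in the type I cell and 942 TPM in the type II cell, against 9.32 TPM in the whole crista, and *SLC12A7*, the K-Cl cotransporter KCC4, had ratios of 14.3 and 17.7. *SLC37A4*, the glucose-6-phosphate transporter, was low at 0.0813 and 0.0910, but not on CPM, at 0.114 and 0.109. Of 27 ubiquitin system genes 6 were high, near the 18.2% of all genes, led by *UBAC1* with ratios of 67.8 and 93.6. None was low, beside 6.71%. Division of each library by its median ratio gave 1 high and 1 low, beside 10.7% and 12.7%. Of 28 splicing and RNA-binding genes 2 were high and 2 low, beside 18.2% and 6.71% of all genes. Division of each library by its median ratio gave 0 and 4, beside 10.7% and 12.7%. Among them *SNRNP27* stood at 15.0 and 12.4 and *DDX5* at 0.0365 and 0.0270 in the type I and type II cells. *CDKN1B*, the cell cycle inhibitor p27, was high with ratios of 10.8 and 13.5 but not with each library divided by its median ratio, at 5.55 and 7.12, and *CCND2*, cyclin D2, stood at 0.188 and 0.261.

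Identifiers without a symbol were more frequent among the high genes. Of the 241 high genes 43 (17.8%) had none, of the 89 low genes 0, and of the 997 others 45 (4.51%). The most abundant gene of both hair cells was such an identifier, ENSGALG00010000588, with 193971 TPM in the type I cell and 137288 TPM in the type II cell, against 8184 TPM in the whole crista. The 4 genes among the 1327 without a read in the organ were also unnamed. Against a floor of 3 reads in the organ library, ENSGALG00010026196 was at least 13358-fold higher in the type I cell and at least 15901-fold higher in the type II cell, from 11003 and 12628 reads. ENSGALG00010025810 was at least 8894-fold and 15379-fold higher. ENSGALG00010025013 and ENSGALG00010023960, with 118 to 212 reads in a hair cell, were at least 179.6-fold and 143-fold higher in both.

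Calls were also counted by gene length, which enters both the read minimum and TPM, and by chromosome. By quartile of length, from short to long, 18.1%, 17.8%, 19.9% and 16.9% of genes were high and 3.92%, 9.04%, 8.76% and 5.12% were low. The median log2 ratio of the type I cell was 1.33, 1.01, 0.89 and 0.37 over the same quartiles, and that of the type II cell 1.20, 1.10, 0.87 and 0.17. The high and low genes were nonetheless alike in median length, 2543 and 2574 bases, beside 2520 bases for the other genes. Of the 1207 genes placed on a chromosome 191 were high and 86 low. Genes without a symbol could not be placed, so the 18.2% of all 1327 genes is not the background here. On chromosomes 1 to 5, 15.1% of 537 genes were high and 7.26% low. On 6 to 10 the shares were 16.7% and 8.60% of 186, and on 11 and above 17.2% and 6.33% of 442. Of 34 genes on chromosome Z 3 were high (8.82%) and 3 low, too few to set Z apart.

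The abundant genes of the organ gave the view from the other side. Of the 500 nuclear genes with the highest TPM in the whole crista, 260 (52.0%) were among the 1327, 173 (34.6%) had no read in either hair cell and 67 (13.4%) lay between. Those not read were led by the globins, *HBA1* with 22447 TPM, *HBBA* with 4599 TPM and *HBAD* with 2985 TPM in the whole crista. Myelin genes were among them, *MBP* with 1702 TPM and *PMP22* with 1292 TPM, and so was *DCN* of connective tissue with 958 TPM. The same set held genes of every cell type, such as *PRDX1* with 2220.1 TPM, *ATP5O* with 1316 TPM, *SDHD* with 1053 TPM and *YWHAZ* with 1283 TPM. A count of 0 allowed up to 3 reads, or 0.278 CPM in the type I cell and 0.251 CPM in the type II cell, for counting error only, and loss at collection or amplification was not measured.

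Where the hair cells differed most from each other, their ratios to the organ parted. *SYNGR1*, *UNC119* and *FSTL3* were high in both cells and higher in the type II cell, with ratios of 14.9, 51.7 and 12.8 in the type I cell and 39.7, 134 and 31.4 in the type II cell. *ST6GAL2*, a sialyltransferase, had 24.3 and 57.4 TPM in the type I and type II cells and 63.7 TPM in the whole crista. In the other direction, *TMC1*, a pore protein of the mechanotransduction channel, had 14.5 TPM in the type I cell and 4.90 TPM in the type II cell, against 7.90 TPM in the whole crista. *TMEM167B* had 115, 52.4 and 196 TPM in the same order. With 1 cell of each type these differences describe the 2 libraries and not the cell types.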

How the data were processed

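Each of the 3 libraries came with a table of 30108 Ensembl genes, with, as deposited, the estimated count of reads per gene (not always whole), its TPM (transcript abundance scaled by gene length and library size) and its length and effective length. The authors' methods name the Illumina DRAGEN platform and the Ensembl GRCg7b genome for the whole crista, and the submitters' processing notes name bcl2fastq 2.20.0.422 and DRAGEN. The labels give 500 ng of RNA in the title of the crista sample, and the methods' 500 pg was followed. Ages and pooling are from the methods.

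TPM were used as deposited. A ratio was the TPM of a hair cell over that of the whole crista, and its exact conditional binomial 95% interval rested on the estimated reads rounded to whole numbers. No test was made, with 1 library per group. Members of the comparison and the 41 gene lists were chosen with earlier results of these data known. Named genes were 5 set markers, the 20 nuclear genes with a symbol at either end, up to 4 genes at either end of each list, the 5 genes most apart between the hair cells in each direction, and the 20 most abundant organ genes without a hair cell read. *TESC*, threshold genes and some markers were named outside that rule, after their values were seen. Lists were matched by symbol, so that *PSMC3IP*, *TRPC4AP*, *RAB11FIP2* and *CLDND1* fell into lists whose name does not describe them. Symbols matched a single RefSeq gene of GRCg7b for 1207 of the 1327 genes, for chromosome and position. Promoter sequences were not used here. Calculations ran in Python 3.11.15 with scipy 1.17.1 for the intervals, pandas 2.3.3 and numpy 2.4.6 for the tables and matplotlib 3.10.9 for the plots. The intervals were run on simulated independent counts without amplification, so this checks the code and not their fit to amplified reads. Alternatives changed the read minimum, the scaling, the fold and the set of genes.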

Additional observations from a re-analysis of the deposited data

Results flagged for a closer look

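For 5 named genes the hair cells lay on opposite sides of the whole crista with both counting intervals clear of 1. *TMC1* was above it in the type I and below it in the type II hair cell, with a log2 ratio of type I over type II of 1.56. So were *ZRSR2*, a splicing factor gene, at 1.28, *CIB3*, a Ca2+-binding partner of the TMC channels, at 0.46 and the collagen gene *COL1A1* at 0.37. ENSGALG00010015138 was below the organ in the type I and above it in the type II hair cell, at -1.34. The ratios of type I and type II to the organ were 1.83 and 0.620 for *TMC1*, 2.03 and 0.838 for *ZRSR2*, 1.16 and 0.842 for *CIB3*, 1.12 and 0.863 for *COL1A1*, and 0.479 and 1.22 for ENSGALG00010015138. These sides depended on the scaling. With each library divided by its median ratio *TMC1*, *CIB3*, *COL1A1* and ENSGALG00010015138 were below the organ in both cells, on CPM *CIB3* and *ZRSR2* were above it in both, and with TPM rescaled over the 1327 genes alone all 5 were below it in both. With 1 library of each type these differences were not tested.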

How the results depend on the processing

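With a minimum of 30 reads, 247 genes were high and 195 low, and the median log2 ratios were 0.47 (type I) and 0.43 (type II). With 1000 reads, 879 genes remained, 219 were high, 6 were low and the medians were 1.89 and 1.87. On CPM, reads scaled to the library total without gene length, 317 genes were high. On that scale 54 were low, all among the 89, and the medians were 1.52 and 1.40. On CPM without mitochondrial genes 324 were high and 49 low, and the medians were 1.59 and 1.48. With TPM rescaled over the 1327 genes alone, 118 were high and 202 low, and the medians turned to -0.29 and -0.34. Divided by the median ratio, 142 were high and 169 low. At 4-fold, 438 were high and 209 low. Without the most abundant gene, an alternative chosen after seeing the data, 277 were high and 70 low, and the type I median was 1.25. The lower counts at 1000 reads and the higher ones at 4-fold follow from how these alternatives are built. Division by the median ratio, rescaling over the 1327 genes and removal of the most abundant gene each multiply all remaining ratios of a cell by a common factor. Their changed counts follow from that. For CPM the cause was not tested. Of the 241 high genes, 238 kept the call on CPM. Of the 20 lowest genes, 1 passed 1000 reads. Of 2956 values of 259 named genes under the alternatives, 1270 moved by more than their counting interval. None of those of a high or low gene changed sign, and 73, of 38 genes without a call, did. By rule a called gene lay at least 10-fold from the organ, so the lack of sign changes there does not measure stability. No paired analysis was possible because each group has 1 library and the labels number no replicates, and no library could be left out.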
